A study of Mus musculus with 2 samples.

Results

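RNA of lung vascular cells was examined for the genes of 15 transporter families: carriers of sugars, monocarboxylates, bicarbonate, protons, chloride, organic ions, fatty acids, nucleosides and folate. Members were all probe sets whose single gene symbol in the platform annotation belongs to the solute carrier families Slc2, Slc4, Slc5, Slc9, Slc12, Slc13, Slc16, Slc22, Slc26, Slc27, Slc28, Slc29, Slc45 and Slc46 or to the Slco family of organic anion carriers. This choice was made by name and used no measured value, though earlier results of these data were known when it was made. It gave 245 of 45037 non-control probe sets and 133 of 18193 genes. By symbol it also took in 4 genes that are not carriers, namely the scaffold genes Slc9a3r1 and Slc9a3r2, Slc4a1ap and the pseudogene Slc2a4rg-ps.

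The study compared old and young C57BL/6J mice. In both groups the left lung lobe had been removed (pneumonectomy), after which the remaining lung grows, and vascular cells were flow-sorted from the right lobes. There was 1 expression array per age, so no difference has a replicate check and no test was possible. No source used here states the ages, the interval since surgery, the antigens used for sorting or how many mice were pooled per array.

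Solute carriers move small molecules across membranes either down their gradient, as the glucose carriers of the Slc2 family do, or coupled to an ion, as the sodium-driven Slc5 and Slc13 carriers do. Endothelium, the cell layer facing the blood, uses glucose carriers to feed itself and the tissue behind it, nucleoside carriers to clear adenosine, and the prostaglandin carrier Slco2a1 to remove prostaglandins from the circulation. Sodium-proton exchangers (Slc9) and bicarbonate carriers (Slc4) set pH in cells and their organelles, and cation-chloride cotransporters (Slc12) set cell volume.

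Signals are MAS5 intensities, scaled so that the median log2 ratio of well-measured probe sets was 0. The floor, the median of an array's probe sets and 73.7 signal units here, marks the level below which values were treated as unordered. A gene was measured if it reached the floor on at least 1 array, and log2 ratios are old minus young. Where 1 side was below the floor, the fold was taken against the floor and is given as "at least". A gene with several probe sets is represented by the brightest of them, judged by the mean of log2 signals. Genes 2-fold or more apart were counted. The log2 ratio of probe sets of the same gene had an SD of 0.42 over 4514 genes, which describes the probes and not the mice.

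The sorted cells carried endothelial transcripts on both arrays, and the old array carried high signals of liver sinusoidal endothelial markers and transcripts of other cells. On the old array the 8 sinusoidal markers had a larger summed signal (166319) than the 8 pan-endothelial markers (115864). On the young array it was smaller (12690 against 64739). In the sinusoidal list, Clec4f (2442 on the old array, 22.4 on the young) is in mice a gene of liver macrophages. Mrc1 and Fcgr2b of that list are also known from macrophages. All 8 pan-endothelial markers, among them Pecam1 and Cdh5, reached the floor on each array. Tek, Esam, Eng and Kdr, 4 of the 8, were 2.21-fold to 5.91-fold higher in the old sample, and 0 of the 8 were 2-fold higher in the young. Of 8 lung epithelial markers 6 were below the floor on both. Markers of leukocytes (8 of 8 measured), fibroblasts (6 of 6), mesothelium (5 of 5) and hepatocytes (8 of 8) exceeded the young array by at least 2-fold on the old, and so did 7 of 8 macrophage, 7 of 8 liver sinusoidal endothelial, 3 of 3 measured neutrophil and 4 of 6 smooth muscle and pericyte markers. Of 7 lymphatic endothelial markers, 5 were at least 2-fold higher in the young sample and 0 in the old. In bulk RNA, fewer cells of a type and less RNA per cell cannot be told apart.

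The promoters of members with the largest ratios are shown first, because these genes set the range of the results. Each window holds the 250 bases before the RefSeq transcription start (build GRCm38.p6, the most upstream start where several are listed), 5′ to 3′ on the gene's strand. Capitals mark matches on either strand to ACGTG (the core of the hypoxia response element), TGANTCA (the AP-1 core), GGGCGG (the GC box) and TATAAA (the TATA box). Slco4a1 and Slc45a3 were the 2 members highest on the young array relative to the old. Slc12a5 and Slc9a9 had the 2 largest ratios toward the old array among members with a promoter in the table and signals above the floor on both arrays, and Slc2a1 is the main endothelial glucose carrier.
Slco4a1 (chr2:180455995-180456244, plus strand): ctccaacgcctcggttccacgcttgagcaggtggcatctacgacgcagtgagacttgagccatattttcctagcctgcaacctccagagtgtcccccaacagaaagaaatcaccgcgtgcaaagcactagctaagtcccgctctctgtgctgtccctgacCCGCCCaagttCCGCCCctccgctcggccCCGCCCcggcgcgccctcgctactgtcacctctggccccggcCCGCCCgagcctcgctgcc
Slc45a3 (chr1:131962665-131962914, plus strand): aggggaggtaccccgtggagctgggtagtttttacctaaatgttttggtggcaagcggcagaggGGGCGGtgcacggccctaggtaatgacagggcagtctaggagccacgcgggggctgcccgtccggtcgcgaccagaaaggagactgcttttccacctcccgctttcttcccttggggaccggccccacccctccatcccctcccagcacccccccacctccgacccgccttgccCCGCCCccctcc
Slc12a5 (chr2:164960596-164960845, plus strand): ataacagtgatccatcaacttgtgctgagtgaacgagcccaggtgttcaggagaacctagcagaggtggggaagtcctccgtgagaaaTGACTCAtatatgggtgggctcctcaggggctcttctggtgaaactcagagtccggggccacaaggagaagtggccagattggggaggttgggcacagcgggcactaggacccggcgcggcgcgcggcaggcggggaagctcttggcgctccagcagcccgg
Slc9a9 (chr9:94669642-94669891, plus strand): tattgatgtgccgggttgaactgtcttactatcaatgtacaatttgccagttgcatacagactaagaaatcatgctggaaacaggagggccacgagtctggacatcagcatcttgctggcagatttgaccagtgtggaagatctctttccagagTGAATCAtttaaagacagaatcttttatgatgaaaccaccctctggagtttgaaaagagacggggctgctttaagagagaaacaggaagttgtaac
Slc2a1 (chr4:119108495-119108744, plus strand): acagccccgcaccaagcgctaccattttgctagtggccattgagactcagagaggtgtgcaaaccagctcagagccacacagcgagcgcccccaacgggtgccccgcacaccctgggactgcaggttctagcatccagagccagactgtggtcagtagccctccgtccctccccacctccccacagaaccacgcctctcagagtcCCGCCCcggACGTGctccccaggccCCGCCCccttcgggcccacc

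The windows of Slco4a1, Slc45a3 and Slc2a1 held 4, 2 and 2 GC boxes, and those of Slc12a5 and Slc9a9 none. The windows of Slc12a5 and Slc9a9 each held 1 AP-1 core. ACGTG occurred once, in the Slc2a1 window. Of all 32851 promoter windows of this length, 32.7% hold a GC box, 6.75% an AP-1 core, 16.6% ACGTG and 12.4% a TATA box. Promoters were found in the table for 21 of the 26 members 2-fold or more apart. GC boxes were in 8 of 13 such windows of members higher on the old array, 7 of 8 of those higher on the young and 20 of 30 of the measured members that were not counted on either side. The AP-1 core was in 2 of 13, 0 of 8 and 1 of 30. A match is a description of letters and not a bound site.

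Of the 133 member genes, 64 (48.1%) were measured, beside 66.5% of all 18193 genes, and 69 were below the floor on both arrays. Among the measured members 18 (28.1%) were at least 2-fold higher in the old sample, beside 16.0% of all 12105 genes measured, and 8 (12.5%) were higher on the young array, beside 11.3% of all genes. Of the remaining 38, 33 were above the floor on both arrays and lay within 2-fold, while 5 (Slc16a10, Slco1b2, Slc27a3, Slc22a12 and Slc4a3) had bounds below 2-fold, which do not place them within it. The median log2 ratio was 0.25 over measured members and 0.03 over all genes measured. The difference reached 8-fold for 7 members on the old side and 2 on the young. The share of all genes measured at 8-fold was not counted, so these 2 counts do not set the members apart from other genes. Of the 26 members 2-fold or more apart, 11 were below the floor on 1 array (8 on the young array, 3 on the old), so that their folds are lower bounds.

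**Figure D1:**
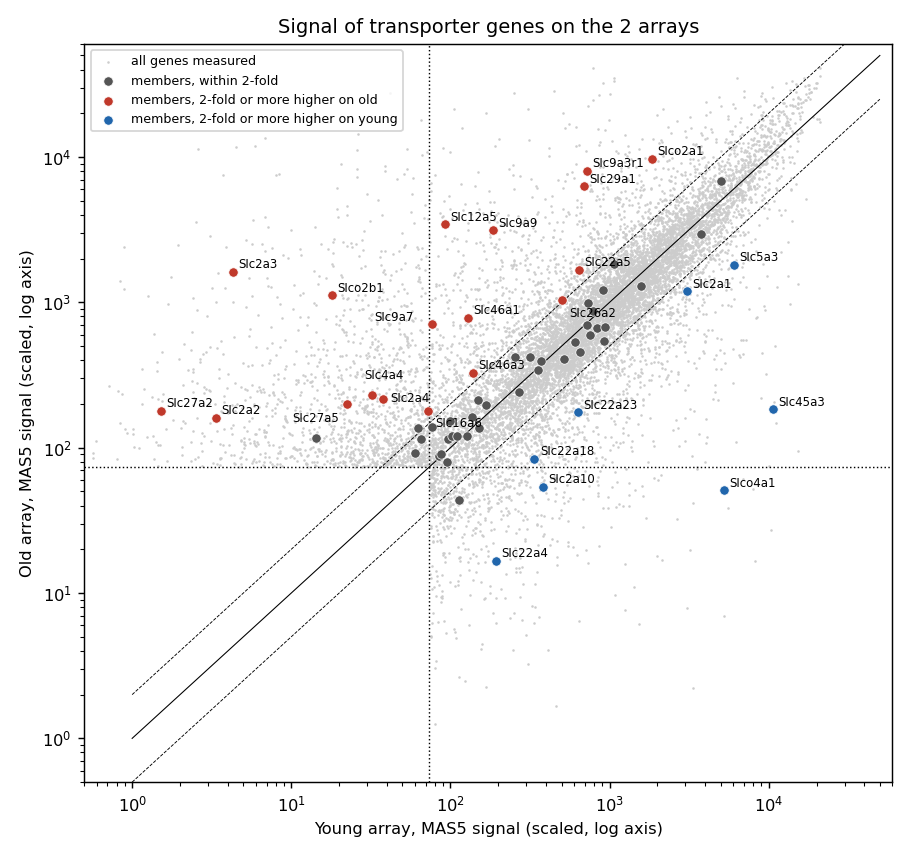
MAS5 signal of each measured gene on the young (x) and old (y) array, both log axes. Grey points are all 12105 genes measured and larger points the 64 measured members, coloured by the 2-fold count. Dotted lines mark the floor of 73.7, the solid line equality and dashed lines 2-fold. Slco4a1 and Slc45a3 lie far below the diagonal and Slc12a5, Slc9a9 and Slc2a3 far above it.

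Glucose carriers of the Slc2 family split between the arrays, of 9 measured members 3 being higher in the old sample and 2 in the young. Slc2a1, which encodes GLUT1, the basal glucose carrier of endothelium and of barrier tissues, had signals of 1191 on the old array and 3061 on the young (2.57-fold). Its 3 probe sets lay close together, from -1.57 to -1.22 in log2 ratio. Slc2a10, which encodes GLUT10, had 54.0 on the old array, below the floor, and 381 on the young, at least 5.17-fold toward the young. Its other probe set, with 41.2 on the old array and so also below the floor, gave a bound of -1.91.

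Slc2a3, which encodes the high-affinity carrier GLUT3 known from neurons and leukocytes, showed the opposite pattern, with 1625 on the old array and 4.31 on the young, at least 22.1-fold toward the old. Both of its probe sets above the floor on the old array are of the _s_at or _x_at kind, which can match several transcripts. The other 2 did not reach the floor on either array, and the mean over all 4 gave at least 1.27-fold, a bound that does not place it under 2-fold. Slc2a4, which encodes the insulin-responsive carrier GLUT4, had 217 against 37.7 (at least 2.95-fold), and at least 1.69-fold as the mean over its probe sets. Slc2a2, which encodes GLUT2 of hepatocytes and pancreatic beta cells, had 161 against 3.38 (at least 2.19-fold). The highest signals of the members within 2-fold belonged to Slc2a8 (866 and 787) and the proton-coupled myo-inositol carrier Slc2a13 (458 and 649), with log2 ratios of 0.14 and -0.50. GLUT1 and GLUT3 thus lay on opposite sides.

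Sodium-coupled Slc5 carriers were mostly not measured, with 10 of 13 below the floor, the intestinal and renal glucose carriers Slc5a1 and Slc5a2 among them. Slc5a3, which takes up myo-inositol as an osmolyte, had 1807 on the old array and 6087 on the young, a 3.37-fold difference toward the young. Its probe sets ranged from -1.75 to -1.64. The Slc5a3 gene overlaps Mrps6 in RefSeq, so its probe sets may also match a transcript that both share. Slc5a6, a vitamin carrier, and Slc5a10 were near the floor on both arrays and had log2 ratios of 0.24 and 0.05.

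Slc45a3 had the largest ratio toward the young array of the members above the floor on both arrays. It encodes a predicted sugar carrier known mainly from prostate epithelium. It had 184 on the old array and 10678 on the young, a 58.0-fold difference, and its probe sets had -5.86 and -5.57. Both are of the kind that can match several transcripts, so no value remains without them. Its relatives Slc45a1 (212 and 149) and Slc45a4 (406 and 515) were within 2-fold.

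Of 7 measured monocarboxylate carriers of the Slc16 family 5 were within 2-fold. Slc16a1, which encodes MCT1, the carrier of lactate, pyruvate and ketone bodies, had 1831 on the old array and 1066 on the young, which is 0.78 in log2 ratio. Its other probe set did not reach the floor, and averaging both gave at least 2.94-fold higher on the old. Slc16a12, a creatine carrier, had 541 and 925 (-0.77). Slc16a6 had 178 on the old array and 72.1 on the young, just below the floor (at least 2.42-fold toward the old), and its gene overlaps Arsg in RefSeq. The other 6 of 13 Slc16 genes were below the floor, Slc16a3 among them, which encodes the lactate exporter MCT4.

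Of 6 measured Slc9 genes, the exchanger genes Slc9a9 and Slc9a7 and the scaffold gene Slc9a3r1 were higher on the old array, and 0 on the young. Slc9a9, an exchanger of endosomes, had 3133 on the old array and 185 on the young (16.9-fold). Its other measured probe set had 295 and 32.9, the latter below the floor, and the mean over all 4 was at least 2.76-fold. Slc9a7, an exchanger of the trans-Golgi network, had 708 and 76.4 (9.26-fold) by a single probe set whose young value lay just above the floor, and its gene overlaps Chst7. Slc9a3r1, which encodes the scaffold NHERF1 that ties carriers to ezrin, had 8010 and 725 (11.0-fold), with 3 probe sets from 2.19 to 3.47. The related scaffold gene Slc9a3r2, known from lung endothelium, had 6795 and 4989 (0.45), its 6 probe sets ranging from -0.13 to 0.78. The 2 related scaffolds therefore differed in their ratio by more than the spread of their probe sets. The exchanger gene Slc9a8 had 136 and 152 (-0.16), and the epithelial exchanger genes Slc9a2, Slc9a3 and Slc9a4 were below the floor.

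Slc12a5 had the largest ratio toward the old array of the members above the floor on both arrays. It encodes KCC2, a potassium-chloride cotransporter known mainly from neurons. It had 3452 on the old array against 91.9 on the young (37.6-fold). The second probe set, with 133 on the old array and a young value under the floor, gave at least 0.85 in log2 ratio, and the mean over both was at least 9.20-fold. The widely expressed cotransporter genes Slc12a7 (1209 and 912) and Slc12a2 (992 and 733) had log2 ratios of 0.41 and 0.44. The probe sets of Slc12a2 had both signs, from -0.42 to 0.44.

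Of 5 measured genes in the bicarbonate family, Slc4a4, the sodium-bicarbonate cotransporter, had 229 on the old array and 32.0 on the young (at least 3.11-fold). It was below the floor as the mean over its 5 probe sets. The anion exchanger gene Slc4a2 had 1296 and 1574 (-0.28), and Slc4a1ap had 531 and 607 (-0.19). Slc4a1, which encodes band 3 of red cells, was below the floor on both arrays, as were 5 of 5 erythroid markers on the array. In the Slc26 family of anion exchangers Slc26a2, the sulfate carrier, had 1031 and 503 (2.05-fold). It had probe sets from -0.05 to 1.03, and 1.87-fold on the values as deposited. Slc26a11 (422 and 315) and Slc26a6 (162 and 137) were within 2-fold, and the other 7 of 10 were below the floor. The only measured Slc13 gene was the citrate carrier gene Slc13a5 (120 and 110).

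**Figure D2:**
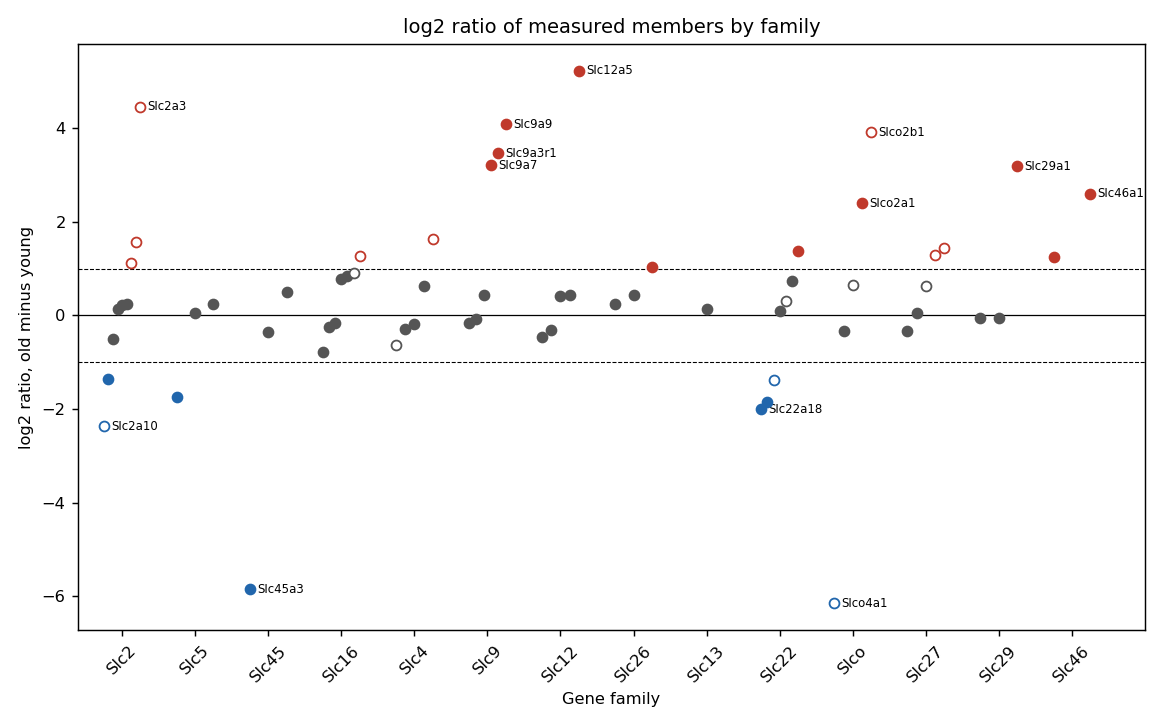
log2 ratio (old minus young) of the 64 measured members, grouped by gene family on the x axis. Filled points were above the floor on both arrays and open points are bounds, red for 2-fold or more higher on the old, blue on the young. Dashed lines mark 2-fold. The Slc9 points reach 4.08 with none under -1, whereas the Slc2, Slc22 and Slco families have points beyond both dashed lines.

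Organic ion carriers of the Slc22 family had 3 of 7 measured members higher in the young sample and 1 in the old. Slc22a4 and Slc22a5, which encode the carriers OCTN1 (ergothioneine) and OCTN2 (carnitine), lie in 1 gene cluster, with only Slc22a21 between them in RefSeq, and had opposite directions. Slc22a5 had 1669 on the old array and 645 on the young (2.59-fold higher on the old, and 1.93-fold as the mean over its probe sets). Slc22a4 had 16.7 on the old array, below the floor, and 193 on the young (at least 2.61-fold toward the young), and Slc22a21 was below the floor on both.

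The orphan carrier gene Slc22a23 had 175 and 633 (3.62-fold higher on the young), and Slc22a18, an imprinted gene, 84.3 and 338 (4.01-fold), the old value lying close to the floor, with at least 2.55-fold as the mean over its probe sets. Slc22a15 (394 and 372) and Slc22a17 (421 and 253) were within 2-fold. The other 14 of 21 Slc22 genes were below the floor, among them Slc22a6 and Slc22a8, which encode the renal organic anion carriers.

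Organic anion carriers of the Slco family also split. Slco2a1, the prostaglandin carrier of vascular endothelium, had 9734 on the old array and 1855 on the young (5.25-fold higher on the old), and all 4 of its probe sets were 2-fold or more higher there, from 1.56 to 2.78. Slco2b1, a carrier of steroid sulfates and other organic anions, had 1116 against 18.0, below the floor (at least 15.1-fold). Its probe sets, all of them bounds, ranged from 0.23 to 3.92, with at least 4.55-fold as their mean. Slco4a1, a carrier of thyroid hormones and other organic anions, had 50.9 on the old array, below the floor, and 5256 on the young. This was at least 71.3-fold, and its other probe set had -5.41 (at least 42.7-fold).

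Slco3a1 depended on its probe set. The representative had 2976 and 3758 (-0.34), while the other 2 had 692 against 4080 (-2.56) and 1228 against 4496 (-1.87), and the mean over the 3 was 3.01-fold higher on the young array. Slco1b2, a carrier of bile acids in hepatocytes, had 116 on the old array and 14.3 on the young, under the floor, which is less than 2-fold as a bound. It was 2.98-fold higher on the old when a constant was added in place of the floor. The other 10 of 15 Slco genes, including Slco1a4 and Slco1c1 of the blood-brain barrier, were below the floor on both arrays.

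Fatty acid carriers of the Slc27 family were all measured, and 2 of 5 were higher on the old array. Slc27a2 and Slc27a5, acyl-CoA synthetases best known from liver, had 179 against 1.52 (at least 2.43-fold) and 200.3 against 22.3 (at least 2.72-fold), both below the floor on the young array. Slc27a4 had 598 and 751, and Slc27a1, known for fatty acid uptake in muscle and fat, had 88.3 and 85.1. Beside Slc27a2, Slc27a5, Slc2a2 and Slco1b2 stand the hepatocyte markers: 8 of 8 measured were at least 2-fold higher in the old sample, their summed signal was 15612 against 431, and Alb, Apoa1, Ttr, Ahsg, Fgb, Cyp2e1 and Cps1 were below the floor on the young array. Other members known from liver did not share this pattern. Slco1a1 (19.9 on the old array, 16.2 on the young), Slco1a4 (63.2 and 9.66) and Slc22a7 (5.96 and 27.1) were below the floor on both. Slc13a5 (120 and 110) was within 2-fold. The part of hepatocyte RNA in the values of these members was not tested.

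Nucleoside and folate carriers were higher on the old array or within 2-fold. Slc29a1, which encodes ENT1, the equilibrative carrier that clears adenosine, had 6281 on the old array and 692 on the young (9.08-fold) by a single probe set. The lysosomal nucleoside carrier Slc29a3 had 696 and 724 and Slc29a4 340 and 356, both close to 0 in log2 ratio (-0.06 and -0.07). Slc46a1, the proton-coupled folate carrier, had 783 and 129 (6.05-fold, 2.60 in log2 ratio), and overlaps Sarm1 in RefSeq. Its other probe set had 50.7 on the young array, below the floor, and gave a bound of 2.68. The lysosomal carrier gene Slc46a3 had 328 and 139 (2.36-fold). Slc28a3, the single concentrative nucleoside carrier gene among the members, was below the floor.

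**Figure D3:**
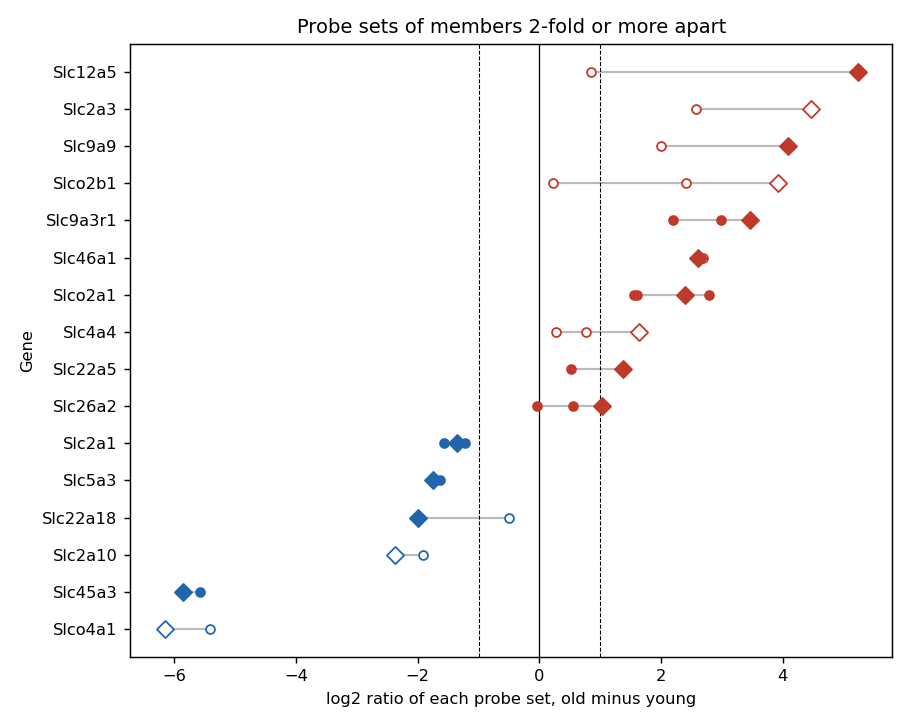
log2 ratio (old minus young) of each measured probe set for the 16 members 2-fold or more apart that had 2 or more of them. Diamonds are the representative probe set, circles the others, open symbols are bounds and dashed lines mark 2-fold. The probe sets of Slc45a3 (-5.86 and -5.57) and Slc2a1 (-1.57 to -1.22) lie together, while those of Slc12a5 spread from 0.85 to 5.23.

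Of these 16 members, 15 had all measured probe sets on the same side of 0, and in 10 all were 2-fold or more apart. Slc26a2 was the exception in sign. A bound can point only toward the array that reached the floor, which limits what agreement in sign shows. Slc2a3, Slco2b1, Slc4a4, Slc2a10 and Slco4a1 had bounds only. Slc12a5, Slc9a9, Slc46a1 and Slc22a18 had 1 probe set each that was not a bound. Agreement without bounds was thus seen only for Slc9a3r1, Slco2a1, Slc22a5, Slc2a1, Slc5a3 and Slc45a3. The values of 6 of the 26 members came from probe sets of the _s_at or _x_at kind, namely Slc2a3, Slco2b1, Slc46a1, Slc2a10, Slc45a3 and Slco4a1. Under 8 other ways of processing, no member moved to the opposite side by 2-fold. The 9 whose count held in every one were Slc12a5, Slc9a9, Slco2b1, Slc9a3r1, Slc29a1 and Slco2a1 on the old side and Slc2a1, Slc5a3 and Slco4a1 on the young.

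Markers of the other cells on the old array stand beside the members known from those cells. Slc2a3 and Slco2b1 are known from macrophages and other leukocytes as well as elsewhere. Pan-leukocyte markers had a summed signal of 12854 in the old sample and 441 in the young, with Ptprc, Cd52, Coro1a, Fcer1g, Tyrobp and Rac2 below the floor on the young, and macrophage markers 20329 and 703, with C1qa, C1qb, C1qc, Adgre1 and Marco below it. The list of liver sinusoidal endothelial markers had 166319 and 12690, with Clec4f, Oit3, Gata4 and Mrc1 below the floor on the young. Of these, Clec4f is a gene of liver macrophages in mice and Mrc1 is also known from macrophages. Pan-endothelial markers, which stand beside Slco2a1 and Slc29a1, had 115864 and 64739. Fibroblast markers, beside which no member is set here, had 22792 and 263. Mesothelial markers, also without a member beside them, had 8458 and 50.6, with all 5 below the floor on the young. Smooth muscle and pericyte markers had 23604 and 354, with Myh11, Cnn1, Cspg4 and Des below the floor on the young. Slc2a4 and Car3 are known from muscle, and Car3 also from fat and from liver, whose hepatocyte markers are given above. On the young side, lymphatic endothelial markers had 64662 against 35086 on the old, where Prox1 and Nts were below the floor. Most of the old sum came from Lyve1 (14902 on the old, 16120 on the young) and Flt4 (18035 and 10262), both within 2-fold. The part of these cells in the ratios of the members was not tested.

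Genes that work with the carriers were taken from a list of 57, of which 51 were on the array and 41 were measured. Of these, 15 (36.6%) were at least 2-fold higher in the old sample and 5 (12.2%) on the young, beside the 16.0% and 11.3% of all genes, and the median log2 ratio was 0.26. The list was drawn up with earlier results of these data known, so these shares are not independent of them and describe the list only. Beside the glucose and lactate carriers, the enzyme gene Hk2, hexokinase 2, which traps glucose in the cell, had 469 on the old array against 1763 on the young (3.76-fold), on the same side as Slc2a1. Ldhb, the lactate dehydrogenase chain that favours pyruvate, had 2492 and 161 (15.5-fold higher on the old, and 29.4-fold as the mean over its probe sets), while Ldha (7926 and 6616) and Hk1 (2599 and 3502) were within 2-fold. Txnip, which promotes removal of glucose carriers from the membrane, had 14049 and 6566 (2.14-fold), but 1.64-fold to 1.95-fold on the values as deposited, with quantile normalization and with loess. Emb, a chaperone of monocarboxylate carriers, was at least 2.86-fold toward the old (below the floor as the mean over its probe sets), and the main chaperone gene Bsg had 5113 and 7485 (-0.55).

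Genes of prostaglandin handling showed large ratios on the side of Slco2a1. Hpgd, the dehydrogenase that inactivates prostaglandins after their uptake, had 11154 on the old array and 26.0 on the young (at least 151-fold, and at least 11.2-fold without the _s_at and _x_at probe sets). Ptgs2, the inducible cyclooxygenase, reached at least 24.4-fold (at least 8.09-fold as the mean over its probe sets) in the same direction. Ptgis, prostacyclin synthase, reached at least 13.2-fold that way, and the receptor gene Ptger4 had a log2 ratio of -0.97. Of the ATP-driven efflux pumps, Abcc4, which exports prostaglandins and cyclic nucleotides, was 17.5-fold and Abcc3 at least 6.20-fold toward the old, Abcc5 was 2.07-fold toward the young (1.97-fold with loess) and its probe sets had both signs. Of the 8 measured pumps 4 were within 2-fold, and Abcb1a (54.5, below the floor, and 140) had a bound of 1.90-fold toward the young.

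Adenosine handling genes Ada, adenosine deaminase (2.29-fold), and Pnp, purine nucleoside phosphorylase (2.06-fold), were higher on the old array, the side of Slc29a1, and the folate receptor genes Folr1 (at least 10.9-fold) and Folr2 (at least 12.7-fold, a gene also known from macrophages) on that of Slc46a1. Adk, adenosine kinase, the other measured gene of this list, had 2700 and 1976 (1.37-fold). Pnp was 1.64-fold to 1.88-fold under the 3 other scalings that took Txnip below 2-fold. Ezr, which encodes ezrin, the partner of NHERF1, was 5.67-fold higher on the old, but its probe sets ranged from -1.44 to 2.50 and their mean was 1.44-fold. Among 7 measured genes that control Slc12 cotransporters, 5 were under 2-fold either way, the kinase gene Stk39 was 2.50-fold higher on the old and Wnk1 2.32-fold on the young, where the mean over its probe sets was 4.25-fold. Car3, a carbonic anhydrase of muscle, fat and liver, was at least 24.3-fold toward the old but below the floor as the mean over its probe sets, with 3 of 5 measured carbonic anhydrases within 2-fold and Car13 (108 and 25.2, below the floor) at a bound of 1.46-fold. Chp2 (at least 2.70-fold) and Tesc (2.74-fold), calcineurin-like partners of sodium-proton exchangers, were higher on the young array.

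**Figure D4:**
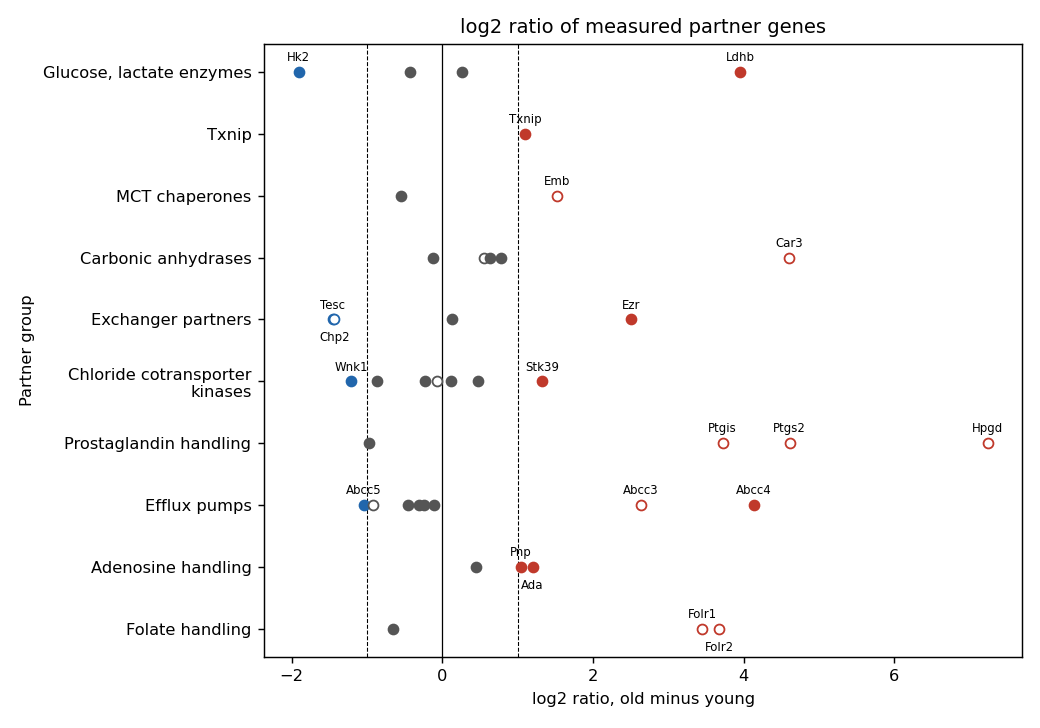
log2 ratio (old minus young) of the 41 measured partner genes, grouped by the carriers they work with (MCT, monocarboxylate carriers). Filled points were above the floor on both arrays, open points are bounds, colours mark 2-fold or more higher on the old (red) or young (blue), and dashed lines 2-fold. Hpgd is the highest point, at 7.24, and Hk2 the lowest, at -1.91.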

How the data were processed

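One-colour Affymetrix arrays of 1 old and 1 young sample were used. The deposited table gives each probe set's intensity on a linear, not a log, scale, made with GCOS 1.4 and MAS5 per the submitters' processing notes. Both deposited arrays had a mean of 500.003 after trimming 2% at each end. No scanner file or detection call was used. Of 45101 probe sets, 64 controls were left out. Names came from the platform annotation of 2016. All 133 members matched a current RefSeq gene by Entrez identifier with the same symbol, and 3 probe sets with several symbols were not used. The arrays were multiplied by 1.05 (old) and 0.956 (young), which removed a median log2 ratio of -0.13 in the deposited values.

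Members, gene lists and alternatives were chosen with earlier results of these data known. Named were all members 2-fold or more apart, the 2 others with the highest mean signal per family, 12 genes set by name, and the partner genes 2-fold or more apart. Other genes named, including partners within 2-fold and members below the floor, were chosen after their values were seen. Alternatives were the values as deposited, quantile normalization, loess (span 0.4), floors at the 25 and 75 percentiles, the mean over probe sets, leaving out _s_at and _x_at probe sets, and an offset of 0.5 times the floor. The counting was tested on simulated data with differences planted only in genes well above the floor and noise added per probe set. That test did not cover folds that are bounds or variation between mice. Python 3.11.15, numpy 2.4.6, pandas 2.3.3, statsmodels 0.14.6 and matplotlib 3.10.9 were used. The number of arrays limits the precision of every value.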

Additional observations from a re-analysis of the deposited data

How the results depend on the processing

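Among the members, 18 lay at least 2-fold toward the old side and 8 toward the young. These counts were 28 and 11 with the lower floor (20.3 signal units, 103 members measured) and 9 and 4 with the higher floor (489, 31 measured), where 13 of the 26 members held their call and 12 of the partner genes were 2-fold or more apart, against 20. The other 6 alternatives gave 14 to 18 on the old and 7 to 9 on the young side. The median log2 ratio of members lay between 0.07 (quantile normalization) and 0.25, and that of all genes measured moved from 0.03 to -0.09 on the values as deposited and with quantile normalization, where the members had 0.12 and 0.07. Calls that ended under an alternative other than the higher floor were those of Slc16a6 (1.97-fold with the offset), Slc22a5, Slc26a2, Slc2a3, Slc2a4, Slc4a4 and Slc45a3. Slc46a1, Slc9a7 and Slc22a23 had bounds of 1.60-fold, 1.45-fold and 1.30-fold with the higher floor, which do not place them under 2-fold. With that floor the ratios of Slc12a5, Slc9a9 and Slc45a3 became bounds of 7.07-fold, 6.41-fold and 21.9-fold. No call moved to the opposite side. No paired analysis was possible because each group has 1 array, and leaving out an array leaves no comparison.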
